A study of Mus musculus with 8 samples.

Results

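RF-amide peptides are short neuropeptides that end in arginine and an amidated phenylalanine, and they act through a small family of G protein-coupled receptors. *Npvf* encodes the precursor of the RF-amide-related peptides, which are known for restraining the reproductive axis and act mainly on the receptor encoded by *Npffr1*. *Npff* encodes neuropeptide FF, a modulator of pain and opioid action that prefers the receptor encoded by *Npffr2*, *Qrfp* encodes a feeding-related peptide that acts on *Qrfpr*, and *Prlh* encodes prolactin-releasing peptide, which acts on *Prlhr* and is known for reducing food intake.

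Expression of these 4 ligands and 4 receptors was compared across the arcuate nucleus (Arc), ventromedial hypothalamus (VMH), dorsomedial hypothalamus (DMH), and lateral hypothalamus (LH), to see in which nuclei a ligand and its receptor are both measured. Every probe that the arrays pair with a RefSeq transcript of one of the 8 genes was taken, which gave 9 of the 55681 probes and 8 of 20284 named genes, 2 of them for *Qrfpr* and 1 for each other gene. The tissue came from 2 C57BL/6 females (C57BL/6J in the methods) at 3 months of age with no treatment or transgene stated, and each nucleus was cut by laser microdissection and hybridized on 2 one-color Agilent arrays, 8 in all. The sources do not say which array came from which mouse, and all nuclei share the same 2 animals. The p-values measure the spread between the arrays within a nucleus, pooled over the 4 nuclei. Whether that is a spread between animals is not known, and the nuclei are not independent of each other.

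A signal is the intensity of a probe's single spot after each array was scaled to the same 75th percentile, so it compares nuclei for 1 probe and not 1 gene with another. "Measured" means that the scanner software called the spot well above background. The arrays called 47.1% to 52.7% of their spots so, all sit on 1 slide in 1 scan, and replicate 1 of every nucleus lies in row 1 of that slide and replicate 2 in row 2, so replicate and row cannot be told apart. The marker genes of the Arc (*Agrp*, *Npy*, *Pomc*), the VMH (*Nr5a1*, *Fezf1*), and the DMH (*Prdm13*, *Grp*) had their highest signals in the nucleus they mark on both arrays. The LH marker *Hcrt* (orexin) had signals of 105971 and 116750 in the LH and 55940 and 51283 in the DMH, against 188 to 684 on the Arc and VMH arrays. The other LH marker, *Pmch* (melanin-concentrating hormone), had 17650 and 17005 in the LH, 16253 and 11631 in the DMH, 3938 and 3140 in the VMH, and 97.5 and 71.1 in the Arc. The LH arrays also stood apart in their oligodendrocyte markers, whose summed signal was 70729 and 76931 in the LH against 15572 to 36383 on the other 6 arrays, with 6 of 8 probes past the test among nuclei described below and the other two, both of *Mbp*, lowest on average in the LH. The endothelial markers summed to 4177 and 5313 in the LH against 1850 to 3383 elsewhere, with 1 of 3 probes past the test. The summed signal of the neuron markers was 123457 and 124557 in the Arc, 175776 and 159377 in the VMH, 132703 and 133796 in the DMH, and 169634 and 145491 in the LH, and 3 of its 6 probes, all of *Rbfox3*, passed it. The part of any of these in the signals given here was not tested.

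The regions just upstream of *Npvf* and *Qrfpr* are printed because these genes had the widest differences between nuclei, one with its high signals in the DMH and the other in the VMH. Each is the 250 bases before the RefSeq gene start, on the strand of the gene, from build GRCm38.p6, and lies at chr6:50654446-50654695 (minus strand) for *Npvf* and at chr3:36222276-36222525 (minus strand) for *Qrfpr*. Capitals mark matches, on either strand, to any of 6 short motifs: TATAAA (the TATA box), CCAAT (the CCAAT box), TAATTA (a homeodomain core), CAAGTG (a site of NK2-class factors such as Nkx2-1), AAGGTCA (a site of the VMH factor Nr5a1), and CACGTG (an E-box). No pair of these matches overlaps.
Npvf: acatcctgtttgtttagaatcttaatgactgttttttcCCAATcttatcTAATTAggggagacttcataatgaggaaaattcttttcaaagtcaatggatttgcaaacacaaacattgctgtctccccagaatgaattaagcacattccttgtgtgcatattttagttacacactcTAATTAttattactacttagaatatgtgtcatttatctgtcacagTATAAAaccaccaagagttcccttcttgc
Qrfpr: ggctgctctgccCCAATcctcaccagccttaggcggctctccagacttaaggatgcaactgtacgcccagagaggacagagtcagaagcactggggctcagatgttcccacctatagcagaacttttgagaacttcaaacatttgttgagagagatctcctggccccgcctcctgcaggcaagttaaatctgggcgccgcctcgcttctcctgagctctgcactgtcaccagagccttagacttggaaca

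The *Npvf* window held TATAAA 29 to 24 bases before the start, CCAAT at 212 to 208, and TAATTA at 201 to 196 and again at 74 to 69. Among 32851 RefSeq promoter windows of the same length, 12.4% held TATAAA, 33.8% CCAAT, and 4.8% TAATTA. The *Qrfpr* window held CCAAT at 238 to 234 bases before the start. The *Npvf* window was 33.2% G and C, and that of *Qrfpr* was 54.8%, against a median of 52.4% over all windows. Of the other members, *Prlh* held CCAAT at 35 to 31 bases before the start, *Npffr1*, *Npffr2*, *Qrfp*, and *Prlhr* held none of the 6 motifs, and *Npff* had no entry. None of the 7 windows held CAAGTG, which was in 11.6% of all windows. The same was true of AAGGTCA, in 4.1% of all windows, and of CACGTG, in 6.0%. These are matches of letters and not sites shown to be bound.

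Of the 9 probes, 7 were measured on both arrays of some nucleus and were tested, and those of *Qrfp* and *Npffr2* were not. In an F-test over the 4 nuclei (limma, adjusted by Benjamini-Hochberg over the 28894 probes tested), 4 of the 7 passed an adjusted p of 0.05, against 8.34% of all probes tested. The 4 probes belong to 3 receptors, *Qrfpr* with 2, *Npffr1*, and *Prlhr*. No ligand probe passed. For 5 of the 7, both arrays of the nucleus with the highest mean lay above all 6 other arrays, which held for 31% of all probes tested. The median range of the nucleus means was 3.74 on the log2 scale for the 7 probes and 0.65 for all probes tested. With dim spots raised to a floor, the lowest signal measured on their array, these medians were 2.21 and 0.61. The 7 could enter only through a nucleus that measured them, so these counts describe them and are no test of the family.

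**Figure D1:**
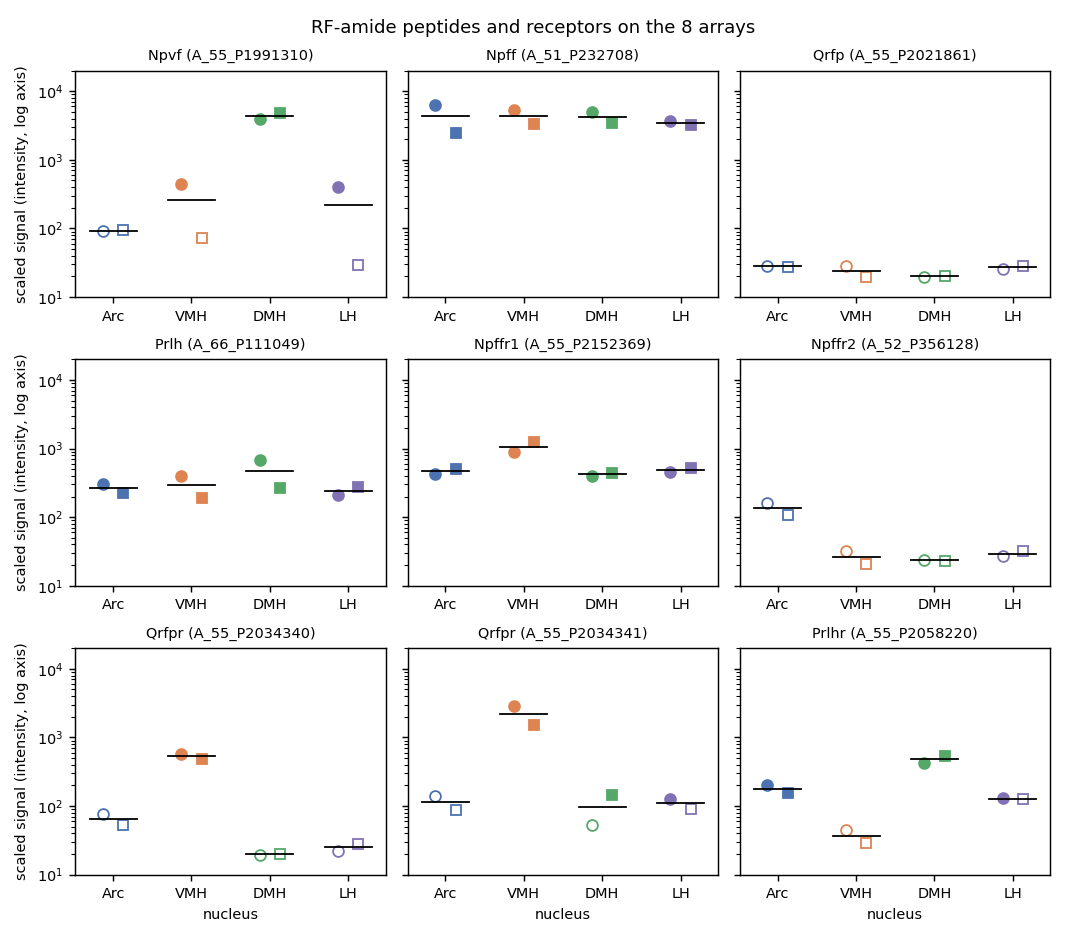
Scaled signal (log axis) of each RF-amide probe by nucleus, with circles for replicate 1, squares for replicate 2, filled symbols where the spot was well above background, open symbols where it was not, and a line at the mean of the 2 arrays. *Npvf* reached 3943 and 4786 in the DMH and at most 438 elsewhere, and *Qrfpr* was highest in the VMH with both of its probes.

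*Npvf* had its high signals in the DMH. The signals of probe A_55_P1991310 were 3943 and 4786 in the DMH, 438 and 72.8 in the VMH, 406 and 29.0 in the LH, and 90.3 and 93.3 in the Arc. Both DMH arrays lay above all 6 others, and outside the DMH the probe was measured only on the first array of the VMH and of the LH. The mean was 4364 ± 596 in the DMH and 255 ± 258 in the VMH (SD, n = 2 arrays each), so the spread of the VMH was as large as its mean. The 2 LH arrays differed 14.0-fold and the 2 VMH arrays 6.01-fold, whereas the 2 DMH arrays differed by less than the gap to any other nucleus. DMH markers were also unequal in the LH, where *Prdm13* had 140 and 27.8 and *Grp* 376 and 32.8 on the first and second array, and their part in the *Npvf* signal of the first LH array was not tested.

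The DMH was at least 38.4-fold above the Arc, a bound set by the lowest signal that the Arc arrays measured for any probe, or by the probe's own where that was higher. Such bounds hold for the scaled processed signal and not for other background corrections. On the log2 scale the DMH minus Arc difference was 5.56 (SE 1.25, limma adjusted p = 0.112), that to the VMH 4.60 (SE 1.25, adjusted p = 0.161), and that to the LH 5.32 (SE 1.25, adjusted p = 0.129). The F-test over the nuclei gave an adjusted p of 0.0769. None of these passed the threshold, although the arrays did not overlap. In all 3 differences the SE is pooled over the nuclei, including the unequal arrays of the VMH and the LH. The outcome depended on the treatment of dim spots: with a floor at the lowest signal an array measured, the adjusted p was 0.0127 against the Arc, 0.0195 against the VMH, and 0.0406 against the LH. With the normexp background correction all 3 also passed (adjusted p = 0.00336, 0.00471, and 0.00845), at smaller log2 differences of 3.91, 3.39, and 3.43, the first of which is under the bound given above. With no scaling (adjusted p = 0.0313) and in a fit of only the nuclei compared (adjusted p = 0.00109), the difference to the Arc passed and the other differences did not.

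Single arrays moved the *Npvf* differences as well. Without LH replicate 1 all 3 passed, with an adjusted p of 0.0176 against the Arc, 0.0268 against the VMH, and 0.0179 against the LH, where the difference became 7.23. Without LH replicate 2 the adjusted p was 0.0239 against the Arc and 0.0346 against the VMH, but the difference to the LH became 3.42 and did not pass (adjusted p = 0.108). The difference to the VMH became 5.90 without VMH replicate 1 and 3.31 without VMH replicate 2, and passed in neither case (adjusted p = 0.215 and 0.491).

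*Npff* was measured on every array and showed no nucleus that stood out. Its probe A_51_P232708 gave 6321 and 2504 in the Arc, 5372 and 3353 in the VMH, 5000 and 3393 in the DMH, and 3681 and 3179 in the LH. The nuclei overlapped, and the first array was the higher one in 4 of 4 nuclei, by 2.52-fold in the Arc, 1.60-fold in the VMH, 1.47-fold in the DMH, and 1.16-fold in the LH. The F-test gave an adjusted p of 0.944. The largest of the 6 differences, VMH minus LH, was 0.31 on the log2 scale with a 95% interval of -0.79 to 1.41. *Tarbp2*, which encodes an RNA-binding protein and is a neighbor of *Npff* with no overlap in RefSeq, had 1333 to 1732 across the 8 arrays and an F-test adjusted p of 0.864.

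*Prlh* was also measured on every array. The signals of probe A_66_P111049 were 674 and 270 in the DMH, 395 and 193 in the VMH, 309 and 222 in the Arc, and 212 and 272 in the LH. The DMH had the highest mean (472 ± 286, SD, n = 2) through its first array alone, and the nuclei overlapped. The largest difference, DMH minus LH, was 0.83 on the log2 scale with a 95% interval of -0.37 to 2.03, and the F-test gave an adjusted p of 0.615. The first array was the higher one in 3 of 4 nuclei.

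*Qrfp* was measured on none of the 8 arrays. Probe A_55_P2021861 had between 19.4 and 28.5 on the 8 arrays, and it was not tested. Such values set no order among nuclei and do not show that the gene is silent. In bulk tissue, fewer cells of a type and less RNA per cell cannot be told apart, which holds for every signal given here.

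*Qrfpr*, the receptor for the *Qrfp* peptide, was highest in the VMH with both of its probes. Probe A_55_P2034341 gave 2846 and 1495 in the VMH, 141 and 88.5 in the Arc, 52.2 and 143 in the DMH, and 127 and 91.7 in the LH. Probe A_55_P2034340 gave 572 and 485 in the VMH, 75.9 and 52.1 in the Arc, 19.5 and 19.9 in the DMH, and 22.3 and 27.9 in the LH. With either probe, both VMH arrays lay above all 6 others. The probes differed in what they measured elsewhere: A_55_P2034341 was measured on the second DMH array and the first LH array, and A_55_P2034340 only in the VMH.

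For A_55_P2034341 the F-test adjusted p was 0.00824, and the VMH exceeded the Arc by 4.21 on the log2 scale (SE 0.54, adjusted p = 0.00746), the DMH by 4.58 (SE 0.54, adjusted p = 0.00982), and the LH by 4.26 (SE 0.54, adjusted p = 0.00862). The VMH was at least 15.4-fold above the Arc with this probe. For A_55_P2034340 the F-test adjusted p was 0.000774, and the bounds were at least 4.66-fold over the Arc (adjusted p = 0.00159), at least 5.58-fold over the DMH (adjusted p = 0.000596), and at least 5.15-fold over the LH (adjusted p = 0.000553). The test also separated the Arc from the DMH (adjusted p = 0.0325) and from the LH (adjusted p = 0.0226) for A_55_P2034340, but no array of those nuclei measured it, so no fold is given. The calls of A_55_P2034341 were lost without VMH replicate 1, with adjusted p-values of 0.0606 against the Arc, 0.0723 against the DMH, and 0.0673 against the LH, and that against the Arc was 0.0624 without Arc replicate 2. The 3 VMH calls of A_55_P2034340 held in all 19 alternatives that could be fitted to it, but their size did not. With the normexp correction, its log2 differences fell from 3.07 to 1.38 against the Arc, from 4.74 to 1.84 against the DMH, and from 4.40 to 1.71 against the LH, which is under the bounds given above, and with the floor for dim signals they were 2.22, 2.48, and 2.36. The differences of A_55_P2034341 were 2.81, 2.86, and 2.66 with the normexp correction, and the first of these is under its bound as well. A separate gene that resembles *Qrfpr*, *Qrfprl*, had its own probe at 22.4 to 156, measured on 1 Arc array and on no VMH array. Whether the *Qrfpr* probes also bind its RNA was not tested.

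*Npffr1*, the main receptor for the *Npvf* peptides, was measured on all 8 arrays and was highest in the VMH. Probe A_55_P2152369 gave 879 and 1267 in the VMH, 430 and 499 in the Arc, 404 and 437 in the DMH, and 461 and 528 in the LH. Both VMH arrays lay above all 6 others, which spanned a narrow range. The F-test adjusted p was 0.0427. The VMH was 2.28-fold above the Arc (log2 difference 1.19, SE 0.24, adjusted p = 0.0365), 2.51-fold above the DMH (1.33, SE 0.24, adjusted p = 0.0466), and 2.14-fold above the LH (adjusted p = 0.0503), the last just outside the threshold. The Arc, DMH, and LH were not separated from each other, with adjusted p-values of 0.661 or more. The second array was the higher one in all 4 nuclei, and the difference to the LH passed in a fit that blocks on the replicate number (adjusted p = 0.0434). These calls sat near the threshold: leaving out any 1 Arc, VMH, or DMH array moved the adjusted p of VMH against Arc to between 0.0678 and 0.224 and that of VMH against DMH to between 0.0815 and 0.238, with no scaling they were 0.0793 and 0.353, with no filter on dim probes 0.0769 and 0.0953, and in fits of only the nuclei compared 0.0504 and 0.0763. The log2 difference itself stayed between 0.84 and 1.46 against the Arc in all alternatives.

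*Npffr2* was likewise measured on none of the 8 arrays. Probe A_52_P356128 gave 163 and 109 in the Arc, 32.3 and 21.1 in the VMH, 23.8 and 23.1 in the DMH, and 26.7 and 31.8 in the LH. Both Arc arrays were the highest of the 8, but since the software measured the probe on none of them, no fold is given and no test was made.

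*Prlhr*, the receptor for prolactin-releasing peptide, was highest in the DMH and lowest in the VMH. Probe A_55_P2058220 gave 427 and 538 in the DMH, 200 and 155 in the Arc, 131 and 125 in the LH, and 44.3 and 29.1 in the VMH. No pair of nuclei overlapped, and the probe was measured on both arrays of the DMH and the Arc, on the first of the LH, and on none of the VMH. The F-test adjusted p was 0.00295. The DMH was at least 4.61-fold above the VMH (log2 difference 3.74, SE 0.28, adjusted p = 0.00198), and it exceeded the LH by 1.91 on the log2 scale (SE 0.28, adjusted p = 0.0389).

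The DMH also exceeded the Arc, its neighbor in the order, by 1.44 on the log2 scale (SE 0.28), which missed the threshold (adjusted p = 0.0709). The Arc was at least 1.70-fold above the VMH (adjusted p = 0.00602), the test separated the LH from the VMH (adjusted p = 0.0151), where no fold is given because the LH measured the probe on 1 array, and the Arc and LH were not separated by the test (log2 difference 0.47, adjusted p = 0.328). The difference between the DMH and the VMH passed in all 19 alternatives that could be fitted to it, but it was 2.21 on the log2 scale with the floor for dim signals and 1.47 with the normexp background correction, the latter under the bound given above. That between the DMH and the LH passed in 8 of 19. It did not pass without any 1 Arc, VMH, or DMH array (adjusted p between 0.0617 and 0.147) or with the replicate number, which is also the slide row, as a block (adjusted p = 0.0601), and with the normexp correction it was 0.83 on the log2 scale (adjusted p = 0.0742). The difference between the DMH and the Arc passed with quantile normalization (adjusted p = 0.0436), with no scaling (adjusted p = 0.0187), and with the floor for dim signals (adjusted p = 0.0375).

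**Figure D2:**
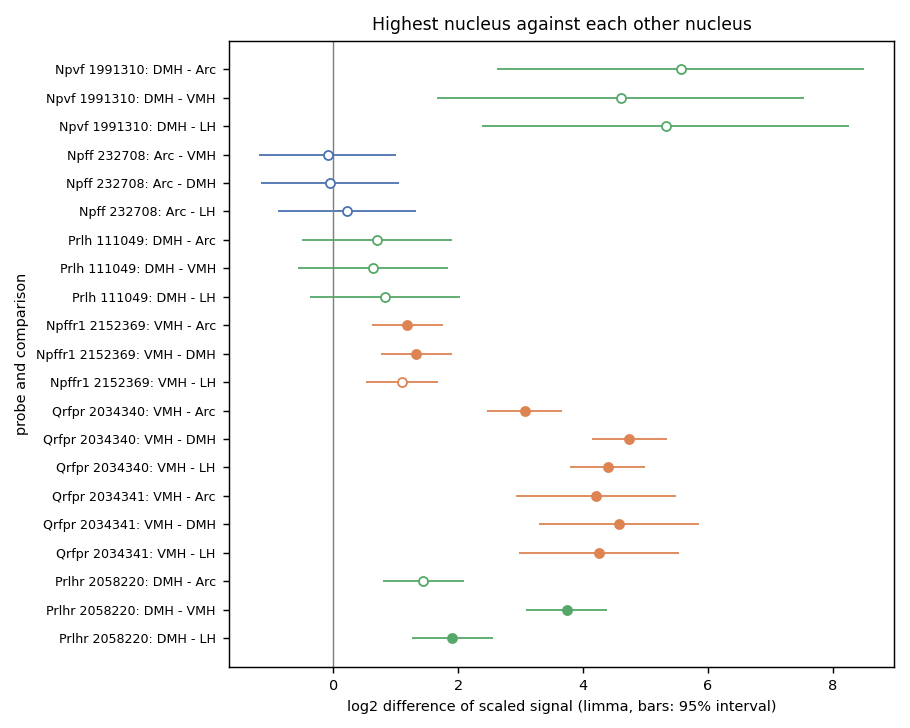
Log2 difference of scaled signal between the nucleus with the highest mean and each other nucleus for the 7 probes tested, with 95% intervals from limma that are not adjusted for multiple tests; filled points passed an adjusted p of 0.05, and color marks the highest nucleus (blue Arc, orange VMH, green DMH). All 6 *Qrfpr* differences lay between 3.07 and 4.74, the intervals of *Npvf* were the widest, and those of *Npff* and *Prlh* all held 0. Where no array of the lower nucleus measured the probe, as for most *Qrfpr* differences, the size rests on spots not well above background.

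Over the 6 comparisons between nuclei, 14 of the 42 differences of these probes passed an adjusted p of 0.05, against 4.13% of all differences tested. The VMH took part in most of them. Most of the 14 are also of *Qrfpr*, a single gene whose 2 probes are counted apart here. Between the Arc and the VMH 4 of the 7 probes passed, against 5.93% of all probes, with both *Qrfpr* probes and *Npffr1* higher in the VMH and *Prlhr* higher in the Arc. Between the VMH and the DMH the same 4 probes passed, against 2.04%, and again *Prlhr* was lower in the VMH and the other probes higher. Between the VMH and the LH 3 passed, against 5.28%, which were both *Qrfpr* probes and *Prlhr*. Between the Arc and the DMH 1 passed, against 1.26%, between the Arc and the LH 1, against 9.34%, and between the DMH and the LH 1, against 0.924%. The calls between the Arc and the DMH and between the Arc and the LH are of *Qrfpr* probe A_55_P2034340, which no array of those nuclei measured, and that between the DMH and the LH is of *Prlhr*. These comparisons share arrays and are not independent of each other.

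Ligand and receptor were set side by side by counting the arrays on which both were measured. *Npvf* and *Npffr1* were both measured on 4 of 8 arrays, namely both of the DMH, 1 of the VMH, 1 of the LH, and 0 of the Arc. Their high nuclei differed, since *Npvf* was highest in the DMH and *Npffr1* in the VMH, and in the DMH *Npffr1* stayed near its level in the Arc and the LH. *Npff* and *Npffr1*, which can also bind neuropeptide FF, were both measured on 8 of 8 arrays, and *Npff* and its preferred receptor *Npffr2* on 0.

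*Prlh* and *Prlhr* were both measured on 5 of 8 arrays, 2 of the Arc, 2 of the DMH, 1 of the LH, and 0 of the VMH. The ligand was measured in the VMH and the receptor was not. *Qrfp* and *Qrfpr* were both measured on 0 of 8 arrays, and *Qrfpr*, by either probe, on 4. Peptides act at the ends of axons that may lie in another nucleus, so a count of RNA in a nucleus does not locate the peptide.

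**Figure D3:**
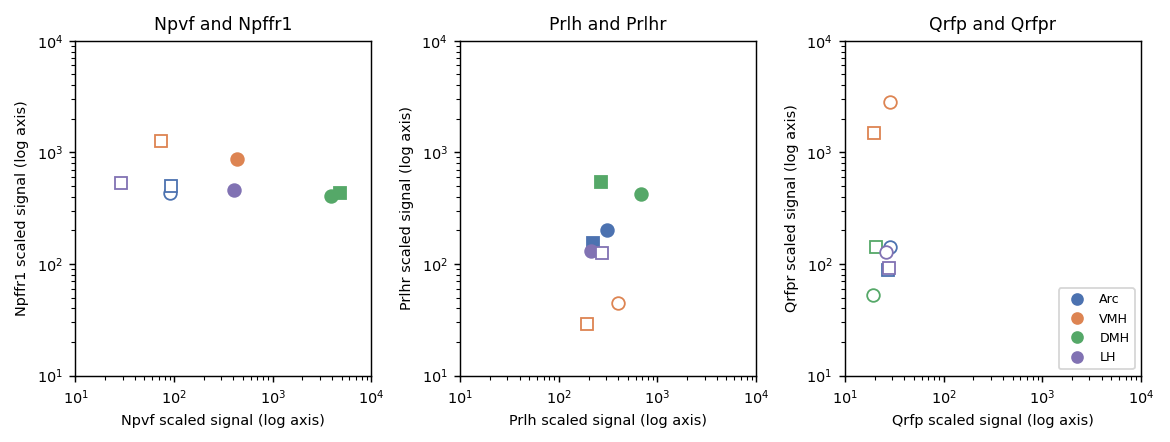
Scaled signal of a ligand (horizontal, log axis) against that of its receptor (vertical, log axis; the brighter probe for *Qrfpr*) on the 8 arrays, with circles for replicate 1, squares for replicate 2, color for the nucleus, and filled symbols where both were well above background. *Npvf* and *Npffr1* were both measured on 4 arrays, *Prlh* and *Prlhr* on 5, and *Qrfp* and *Qrfpr* on 0.

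Kisspeptin and its receptor form the other RF-amide pair. *Kiss1*, which encodes the peptide that drives GnRH neurons, had 23170 and 16617 in the Arc with probe A_55_P2069765 and between 194 and 300 on the 6 other arrays. The Arc exceeded the LH, the nearest nucleus, by 6.08 on the log2 scale (SE 0.28, adjusted p = 0.000351). A second *Kiss1* probe, A_55_P2069768, was also highest in the Arc, at 336 and 427, but its F-test adjusted p was 0.239. *Kiss1r* was measured on all arrays at 289 to 557. Its VMH and LH arrays lay above those of the Arc and the DMH, but the F-test adjusted p was 0.413. *Gnrh1* was measured on no array.

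Of 30 probes for 22 other genes of the pathway, 29 were tested and 6 passed the F-test, each for a different gene, where 8.34% of all probes passed. In the group that cuts and amidates the precursors, 2 of 10 probes passed, against the same 8.34%. *Pcsk1*, a prohormone convertase, had 2839 and 3048 in the LH, 1543 and 1830 in the Arc, 1308 and 1222 in the DMH, and 1004 and 990 in the VMH, and the LH exceeded the VMH by 1.56 on the log2 scale (SE 0.19, adjusted p = 0.00830). The other convertase, *Pcsk2*, had its lowest mean in the Arc (10197, against 23473 in the VMH, F-test adjusted p = 0.0495), whereas its second probe had an adjusted p of 0.481. *Pam*, the enzyme that makes the terminal amide every RF-amide needs, was measured on all 8 arrays (F-test adjusted p = 0.673).

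Of 16 probes for G proteins and effectors of these receptors, 3 passed and 13 did not, against 8.34% of all probes. *Plcb1* and *Plcb4*, phospholipases downstream of Gq, and *Kcnj3*, a subunit of the G protein-gated potassium channel, were all higher in the VMH than in the Arc. The difference was 1.85 on the log2 scale for *Plcb1* (SE 0.21, adjusted p = 0.00501), 1.72 for *Plcb4* (SE 0.24, adjusted p = 0.00972), and at least 1.95-fold for *Kcnj3* (adjusted p = 0.0161). With the same probes the LH also exceeded the Arc, by 1.81 for *Plcb1* (adjusted p = 0.00433) and 1.31 for *Plcb4* (adjusted p = 0.0198). The DMH exceeded the Arc by 1.28 for *Plcb1* (adjusted p = 0.0450). The VMH was not separated from the LH for *Plcb1* (adjusted p = 0.935) or *Plcb4* (adjusted p = 0.386). The probe of *Kcnj3* was measured on both arrays of the VMH and the DMH and on none of the others. The neuron marker *Rbfox3* was also higher in the VMH than in the Arc with each of its 3 probes, with means of 3097 against 871, 11474 against 3169, and 3536 against 1355, and its part in these differences was not tested. A second *Kcnj3* probe had an F-test adjusted p of 0.226. Of the 29 pathway probes tested, 6 probes of 4 genes were higher in the VMH than in the Arc (3.52% of all probes tested) and 4 were higher in the LH than they were in the Arc (6.02%).

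The genes whose pattern over the 8 arrays was most like that of a member were listed for the brighter probe of each tested member, by Pearson's r of the log2 scaled signal. These values are the highest among all named probes tested, so they are high by the way they were chosen, and the points share arrays, animals, and nuclei. For *Prlhr* they were *Brs3*, which encodes a bombesin-like receptor (0.987), *Pld6* (0.985), and *Trpc5*, a cation channel (0.975), each with its highest mean in the DMH and its lowest in the VMH. For *Qrfpr* they were *Mrtfb* (0.983), *Camk2a*, a neuronal kinase (0.981), and *Itpka*, an inositol trisphosphate kinase (0.980), and for *Npffr1* they were *Rpusd1* (0.990), *Krt18*, a keratin (0.978), and *Rab2a* (0.976), all highest in the VMH. For *Npvf* they were 1700048O20Rik (0.973), *Ptprg* (0.951), and *Tmem131* (0.943), all highest in the DMH. For *Npff* they were *Ifi27l2b* (0.971), *Sox12* (0.963), and *Itpkc* (0.946), and for *Prlh* they were *Psg23* (0.935), *Sla2* (0.934), and *Krt24* (0.921).

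**Figure D4:**
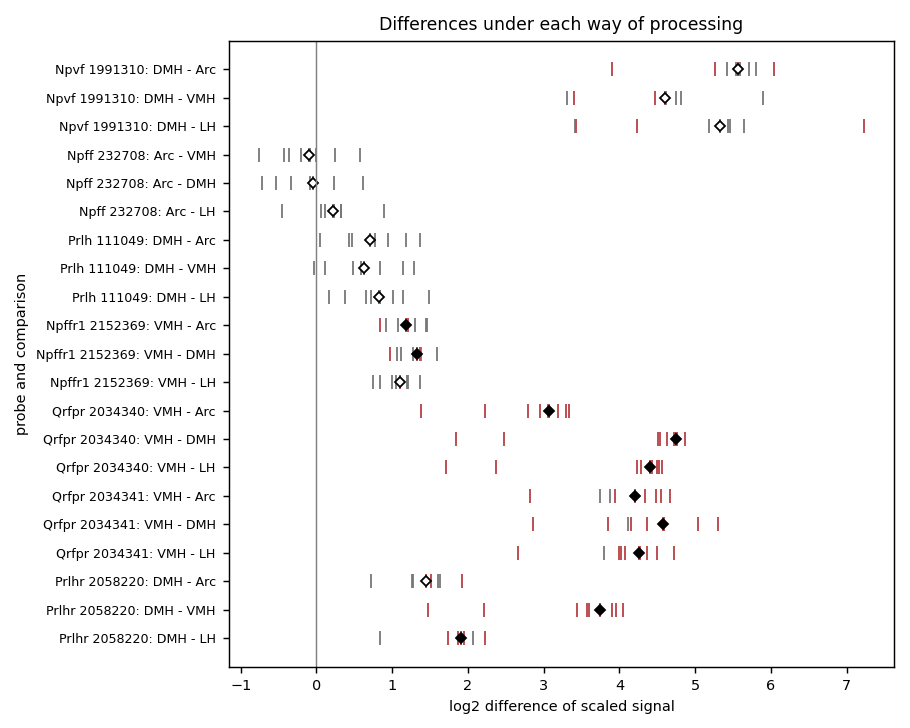
Log2 difference between the highest nucleus and each other nucleus for the 7 probes tested (number: end of the probe name), with a diamond for the reported value (filled where its adjusted p was under 0.05) and ticks for each alternative way of processing (red where the adjusted p was under 0.05). All differences of *Npvf*, *Npffr1*, *Qrfpr*, and *Prlhr* stayed above 0, and those of *Npff* and 1 of *Prlh* crossed it.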

How the data were processed

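The 8 arrays hold 2 hybridizations for each nucleus, mapped by their labels. The authors amplified total RNA, labeled the cDNA, and read the intensity of each spot using Agilent Feature Extraction. The deposited processed signal is a background-subtracted intensity on a linear scale that is not scaled between arrays. The file headers give version 10.7.3.1 and the labels 11.5.1.1, and the dye is Cy3 in the labels and Cy5 in the methods, while the files hold the red channel. The deposited table of the whole series matched these signals, averaged over spots, within 0.51 for 99.7% to 99.8% of probes on an array.

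Outlier spots were left out, spots of a probe averaged, and each array scaled to a common 75th percentile. Signals were taken as log2 and fitted with limma 3.58.1 (R 4.3.3) with 1 mean per nucleus over the 28894 probes that both arrays of some nucleus called well above background, with 4 residual and 3.02 prior degrees of freedom. P-values were adjusted by Benjamini-Hochberg over all these probes in each comparison, with a threshold of 0.05. A fold is called "at least" where no array of the dimmer nucleus measured the probe. Names came from RefSeq accessions (GRCm38.p6), which named 26762 of 28390 probes that carry one. Precision is limited by the small number of arrays and by signal over background.

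The members, gene lists, and tests were chosen with earlier results of these data known. The genes named are the 8 members with all probes, *Kiss1* and *Kiss1r*, the pathway genes past the F-test, the nucleus markers, and the 3 genes most like each tested member. *Pam*, *Gnrh1*, *Tarbp2*, and *Qrfprl* were added to these after their values were seen. The scripts were tested on simulated data. The alternatives were other scaling, background correction, filters, floor, moderation, and test, the series table, outlier spots kept, the replicate number as a block, each array left out, and fits of the 2 nuclei compared.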

Additional observations from a re-analysis of the deposited data

How the results depend on the processing

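Of the 408 recomputed differences between the highest and another nucleus, 349 kept their direction and side of the threshold, 33 lost the call, 20 gained it, and 6 turned direction. The number of RF-amide probes past the F-test (4) was 1 with the filter on all 8 arrays, which leaves 3 of these probes, 2 with the test of the methods' statistics section, and 2 to 5 with an array left out, the 2 without VMH replicate 1. The 14 calls between nuclei became 3 with the filter on all 8 arrays and 6 to 16 with an array left out. They were 6 without VMH replicate 1, 8 without Arc replicate 1, and 9 without Arc replicate 2, VMH replicate 2, or either DMH array. The 6 pathway probes became 3 with the test of the methods' statistics section and 2 to 10 with an array left out, which were 2 without any 1 Arc or VMH array and 10 without LH replicate 1. Over all probes the F-test called 8.34%, 1.84% with the test of the methods' statistics section, and 3.07% to 12.3% with an array left out, 10.6% with the filter on all 8 arrays, and 7.2% with the replicate block.

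The 6 turned differences were not past the threshold in either form. With an array left out, *Npff* ranged from -0.76 to 0.57 for Arc minus VMH, -0.72 to 0.62 for Arc minus DMH, and -0.45 to 0.89 for Arc minus LH, and *Prlh* from -0.032 to 1.29 for DMH minus VMH. For *Npff*, Arc minus VMH (-0.09) became 0.57 without Arc replicate 2 and 0.25 without VMH replicate 1, Arc minus DMH (-0.05) became 0.62 without Arc replicate 2 and 0.23 without DMH replicate 1, and Arc minus LH (0.22) became -0.45 without Arc replicate 1. For *Prlh*, DMH minus VMH (0.63) became -0.032 without DMH replicate 1. The cause was not tested.

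The sources do not say what a replicate number marks, and deviations of same-numbered arrays correlated at -0.03 to 0.26, so the arrays were not treated as paired, although they share a slide row and may share an animal. With the replicate number as a block the counts were 4, 13, and 5. The *Prlhr* difference between the DMH and the LH lost its call (adjusted p = 0.0601), and that of *Npffr1* between the VMH and the LH gained one (adjusted p = 0.0434). These changes alone would leave the calls between nuclei at 14, so another call was lost as well. Fits of single comparisons with 1 array of a nucleus assume that it varies like the others. Spots not well above background limit *Qrfp* and *Npffr2* to no order among nuclei.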
